A study of Mus musculus with 108 samples.

Results

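The liver makes most of the proteins dissolved in blood plasma, and the chromatin of 59 genes that encode such proteins is described here in the livers of C57BL/6 female mice. The 59 genes were chosen by name, as genes for carrier proteins, apolipoproteins, coagulation factors and their inhibitors, complement proteins and inter-alpha-trypsin inhibitor chains, and not by any measured value. Earlier results of these data were known when they were chosen. They are 59 of the 26089 genes with a curated RefSeq transcript on chromosomes 1 to 19 and X, and they lie on 17 chromosomes. Their transcription start sites (TSS) fall into 45 sets when TSS within 50 kb of each other are joined, and 7 of these sets hold more than 1 gene and 21 genes between them, so that the genes of a set share chromatin and are not independent of each other. The list does not hold plasma proteins alone. Cps1 encodes the mitochondrial enzyme that starts the urea cycle, and C5ar1 encodes the receptor for complement fragment C5a, best known on myeloid cells. Both were kept, as listed, and are named apart from the rest.

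Chromatin was prepared from formalin-fixed, paraffin-embedded livers and immunoprecipitated for H3K4me3, H3K27me3, H3K27ac and H3K4me1. The SD 3m group (3 months of age, standard diet) had 8 mice and 30 libraries, the SD 12m group (12 months, standard diet) had 8 mice and 29 libraries, and the CR 12m group (12 months, with 30% fewer calories from 3 months of age on) had 9 mice and 29 libraries. No mouse carried an engineered allele. The libraries for H3K4me3, H3K27me3, H3K27ac and H3K4me1 numbered 7, 7, 8 and 8 in SD 3m, 8, 8, 7 and 6 in SD 12m, and 5, 6, 9 and 9 in CR 12m. The SD 6m group was not analysed here. Libraries of a group had been merged before every bin of 200 bp was given a state from 1 to 8, so each group has 1 segmentation, no spread between mice exists, and no difference between groups could be tested. The read depth behind the states is unknown. Whole liver was used, and a state does not tell a mark found in all cells from a mark found in part of them.

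The states are read as follows. State 1, active TSS, carries H3K4me3 and H3K27ac with little H3K4me1, and state 2, flanking TSS, carries these 3 marks together. States 3 and 4 are active enhancers, state 3 with H3K27ac and H3K4me1 and state 4 with H3K27ac that is weak. State 5, poised enhancer, has H3K4me1 with little H3K27ac. State 6 has the Polycomb mark H3K27me3, state 7 covers repeats and lamina-associated DNA, and state 8 has none of the marks. H3K4me3 is known to gather around the start of transcribed genes, most broadly where the DNA is rich in CpG dinucleotides, while H3K4me1 with H3K27ac is known from enhancers. Genes of the hepatocyte secretory programme are known to be driven by liver-enriched factors such as HNF1, HNF4, C/EBP and FOXA, and to have promoters poor in CpG.

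The tissue was checked against genes that define its cells. At least 58 of the 59 genes had the TSS bin in an active or poised state (states 1 to 5) in every group. The TSS bin was in state 1 or 2 in 24, 28 and 25 of 40 hepatocyte enzyme genes in SD 3m, SD 12m and CR 12m. The same held in 0, 0 and 0 of 7 markers of Kupffer cells, in 2, 1 and 0 of 7 of endothelial cells, in 1, 0 and 0 of 6 of stellate cells, in 0, 0 and 1 of 6 of cholangiocytes and in 0, 0 and 0 of 7 of lymphocytes. Over states 1 to 5, as counted for the 59 genes, the TSS bin was marked in 39, 40 and 40 of the hepatocyte enzyme genes, in 2, 1 and 1 markers of Kupffer cells, in 5, 5 and 7 of endothelial cells, in 2, 1 and 1 of stellate cells, in 2, 3 and 4 of cholangiocytes and in 3, 3 and 2 of lymphocytes. Active or poised states at markers of other cells, of endothelial cells above all, were thus present in this tissue, and their part in the results was not tested. In state 1 or 2, the 59 genes themselves numbered 29, 32 and 21. Within 2 kb of the TSS, a bin in state 1 or 2 lay in 56, 52 and 51 of the 59 genes and in 35, 38 and 38 hepatocyte enzyme genes. By this measure the markers numbered 6, 5 and 3 for endothelial cells and 1, 0 and 0 for Kupffer cells. They numbered 2, 1 and 0 for stellate cells, 2, 1 and 1 for cholangiocytes and 1, 1 and 0 for lymphocytes.

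The promoters were poor in CpG. In the window from 250 bases before to 50 bases after the TSS, the ratio of observed to expected CpG was under 0.5 in 58 of the 59 genes (98.3%), against 48.9% of all 26089 genes, and its median was 0.197 against 0.516. The ratio was also under 0.5 in 96.8% of 63 further plasma protein genes, which are not on the list, and in 70.0% of the 40 hepatocyte enzyme genes. Their medians were 0.213 and 0.304. The 120 bases before the TSS are shown for 6 genes, which were picked by hand and not by rank. They run from 5′ to 3′ on the strand of the gene, with each CpG in capitals. The sequences are those of RefSeq on GRCm38.p6, the assembly of mm10.
Alb, chr5:90460750-90460869 on the plus strand: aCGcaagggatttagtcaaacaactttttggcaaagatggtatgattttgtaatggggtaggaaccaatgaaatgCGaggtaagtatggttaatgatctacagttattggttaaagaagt
Fgb, chr3:83049864-83049983 on the minus strand: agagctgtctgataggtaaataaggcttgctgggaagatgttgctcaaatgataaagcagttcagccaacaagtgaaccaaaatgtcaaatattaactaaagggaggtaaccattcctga
Apoa1, chr9:46228510-46228629 on the plus strand: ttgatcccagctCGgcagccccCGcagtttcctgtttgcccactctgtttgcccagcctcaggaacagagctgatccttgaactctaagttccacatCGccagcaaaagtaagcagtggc
Rbp4, chr19:38125322-38125441 on the minus strand: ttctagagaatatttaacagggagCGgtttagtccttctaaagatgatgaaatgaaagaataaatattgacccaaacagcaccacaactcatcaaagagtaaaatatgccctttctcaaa
Hamp, chr7:30944030-30944149 on the minus strand: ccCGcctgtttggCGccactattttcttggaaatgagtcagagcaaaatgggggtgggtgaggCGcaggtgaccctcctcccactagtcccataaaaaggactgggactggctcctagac
C6, chr15:4727090-4727209 on the plus strand: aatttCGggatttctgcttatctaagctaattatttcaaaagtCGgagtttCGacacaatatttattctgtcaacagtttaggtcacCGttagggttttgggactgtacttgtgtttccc
These stretches held 2 CpG in Alb, 0 in Fgb, 3 in Apoa1, 1 in Rbp4, 3 in Hamp and 4 in C6.

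Letters of 4 liver-enriched factors were searched on both strands of the same window of 300 bases. The HNF1 letters GTTAAT were found in 13 of the 59 genes (22.0%, against 6.34% of all genes), the HNF4 letters CAAAGNNCA in 11 (18.6%, against 5.91%), the C/EBP letters TTGCNNAA in 17 (28.8%, against 10.2%) and the FOXA letters TNTTTAC in 15 (25.4%, against 11.1%). The TATA box TATAAA, searched on the gene's strand from 45 to 15 bases before the TSS, was found in 4 (6.78%, against 2.77%). In Alb the HNF1 letters lay 32 to 27 bases before the TSS, and the C/EBP letters lay 94 to 87 bases before it on the other strand. In Fgb the HNF1 letters lay 29 to 24 bases before the TSS on the other strand, the C/EBP letters 80 to 73 bases before it and the FOXA letters 105 to 99 bases before it on the other strand. None of these letters was found in the stretches shown for Apoa1, Rbp4, Hamp and C6, which says nothing of the factors there. A match is a description of the letters and not a bound site.

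At the TSS itself, these genes were divided between promoter states and enhancer states. The bin that holds the TSS was in state 1 or 2 in 29 of 59 genes in SD 3m (49.2%, Wilson 95% interval 36.8 to 61.6, against 40.1% of all genes), in 32 in SD 12m (54.2%, 41.7 to 66.3, against 34.7%) and in 21 in CR 12m (35.6%, 24.6 to 48.3, against 30.7%). It was in state 3 in 19 genes in SD 3m (32.2%, 21.7 to 44.9, against 6.43% of all genes), in 20 in SD 12m (33.9%, 23.1 to 46.6, against 8.82%) and in 34 in CR 12m (57.6%, 44.9 to 69.4, against 13.3%). These intervals cover the counting of genes only and not the mice. State 3 at the TSS was thus several times as frequent among these genes as among all genes in every group. In SD 3m, SD 12m and CR 12m it held the TSS bin of 17, 26 and 31 of the 63 further plasma protein genes. For the 40 hepatocyte enzyme genes these numbers were 8, 6 and 12. State 3 at the TSS was thus more frequent than among all genes in these lists too. States 4 and 5 together held the TSS bin of 11, 7 and 3 of the 59 genes.

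Almost none of these start sites was without active marks. States 1 to 5 together held the TSS bin of 59, 59 and 58 genes in SD 3m, SD 12m and CR 12m, against 58.2%, 58.3% and 58.9% of all genes. The Polycomb state 6 held none in any group. A bin in state 1 or 2 lay within 2 kb of the TSS in 56 genes in SD 3m (94.9%, against 47.8% of all genes), 52 in SD 12m (88.1%, against 44.0%) and 51 in CR 12m (86.4%, against 41.7%). So most genes with state 3 at the TSS bin had state 1 or 2 close by, and the next paragraphs give where.

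**Figure D1:**
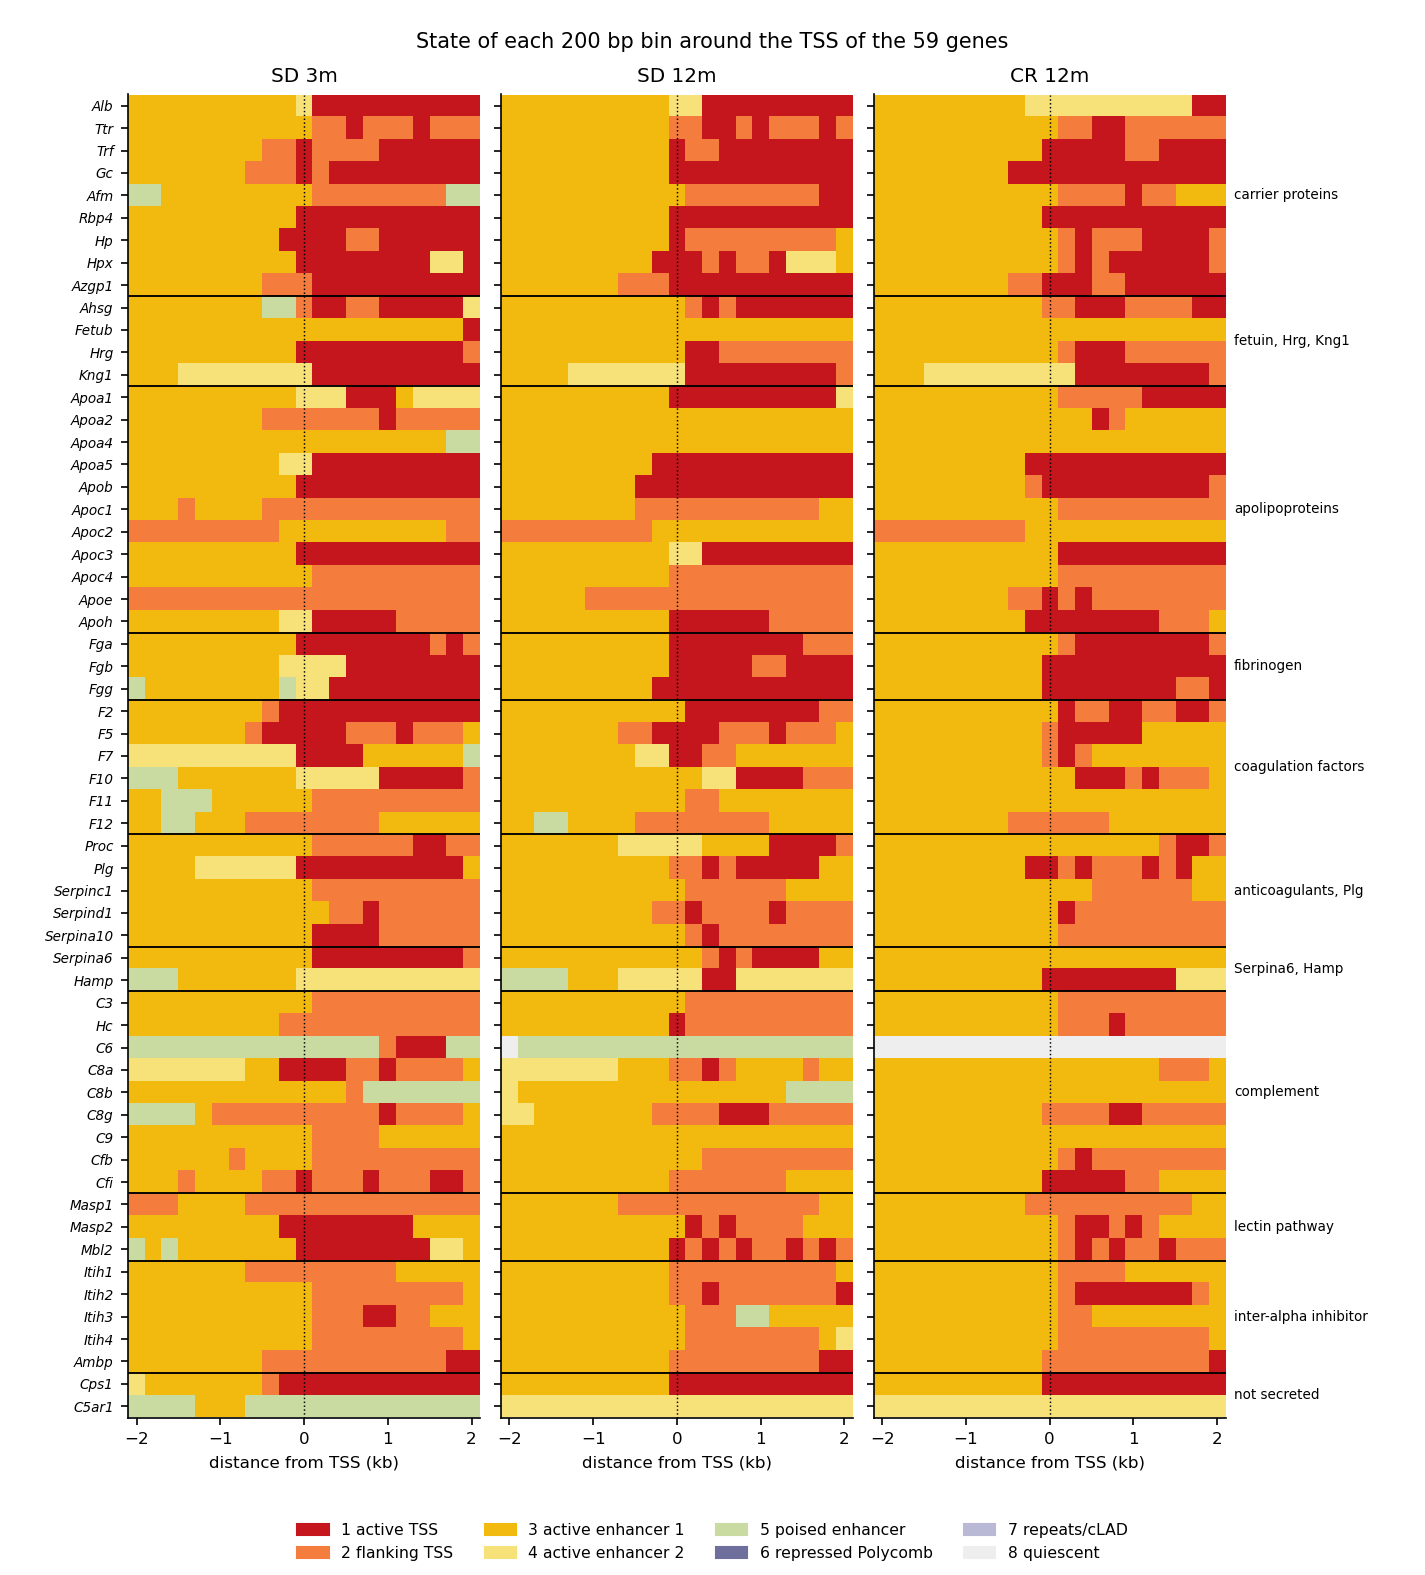
State of each 200 bp bin from 2 kb before to 2 kb after the TSS (horizontal axis, kb, transcription to the right) for the 59 genes (rows, grouped by role) in SD 3m, SD 12m and CR 12m; colours are the 8 states. In most rows states 1 and 2 start at or just after the TSS and run to the right, state 3 fills the left, and C6 in CR 12m is the only row in state 8 throughout.

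States 1 and 2 lay after the TSS and hardly before it. In SD 3m, 11% of the bins in the 2 kb before the TSS were in state 1 or 2, and 76.4% were in state 3. In the 2 kb after the TSS, 79.3% of the bins were in state 1 or 2. The bins before the TSS were in state 1 or 2 in 5.76% for SD 12m and 3.73% for CR 12m, with 85.8% and 91.5% in state 3, and the bins after it in 72.5% and 69.3%. Among genes with any bin in state 1 or 2 in the window, more such bins lay after than before the TSS in 54 of 56 genes in SD 3m (against 66.5% of all genes with such a bin), in 51 of 52 in SD 12m (against 73.7%) and in 50 of 51 in CR 12m (against 74.7%). The exceptions were Apoe in SD 3m, with 10 bins on each side, and Apoc2 in all 3 groups, whose 9 bins in state 1 or 2 before the TSS lay in the adjoining gene Apoc4. This measure was chosen after the values were seen.

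The comparison with other active genes is given over genes with state 1 or 2 in the window in all 3 groups, of which 49 are among the 59 and 10621 among all genes. Before the TSS, 12.9%, 6.94% and 4.49% of the bins of the 49 genes were in state 1 or 2 in SD 3m, SD 12m and CR 12m, against 51.2%, 29.2% and 24.9% over the 10621 genes. After the TSS the shares were 87.3%, 85.1% and 81.6%, against 77.8%, 55.8% and 51.5%. The 2 sets thus stood apart on both sides of the TSS, lower before it and higher after it. Among the 1544 of the 10621 genes whose promoter CpG ratio was under 0.5, the shares were 36.8%, 19.9% and 16.7% before the TSS and 72.7%, 56.6% and 51.5% after it, so that before the TSS they lay between the 49 genes and the 10621. The 75 ribosomal protein genes, taken whole, were close to the 10621 genes before the TSS, with 50.5%, 29.2% and 22.8% of bins in state 1 or 2, and had 88.7%, 61.7% and 66.1% after it. The comparison with CpG-poor genes was added after the values were seen.

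Other genes of the hepatocyte resembled the 59. Over the 63 further plasma protein genes, 8.57%, 4.60% and 2.70% of the bins before the TSS were in state 1 or 2, and 64.6%, 61.1% and 56.8% of those after it. Over 40 hepatocyte enzyme genes the shares were 19.2%, 8.25% and 11.2% before and 85.5%, 91.5% and 88.0% after the TSS. The same placement was thus also found outside the 59 genes.

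**Figure D2:**
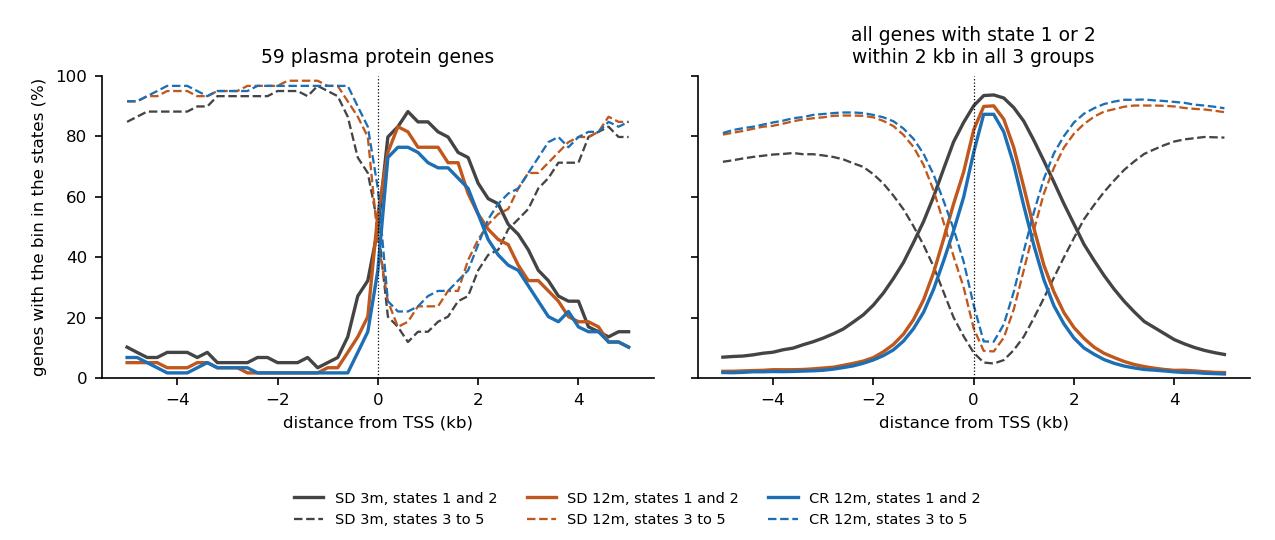
Percent of genes (vertical axis) whose bin at each distance from the TSS (horizontal axis, kb) is in states 1 and 2 (solid) or 3 to 5 (dashed), in SD 3m, SD 12m and CR 12m, for the 59 genes (left) and for the 10621 genes with state 1 or 2 within 2 kb in all 3 groups (right). On the left the solid lines stay low before the TSS and are at 54.2% or more at 2 kb after it in all groups; on the right they are spread around the TSS in SD 3m and, at 2 kb after it, have values of 16.7% for SD 12m and 13.2% for CR 12m.

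Further from the TSS, states 1 and 2 reached deeper into the 59 genes. At 2 kb after the TSS, 64.4%, 54.2% and 54.2% of the 59 genes were in state 1 or 2 in SD 3m, SD 12m and CR 12m, against 50.9%, 16.7% and 13.2% of the 10621 genes. At 3 kb after it, 42.4%, 32.2% and 30.5% were, against 25.4%, 5.47% and 3.95%. The difference between the 2 sets at these distances was larger in both 12-month groups than in SD 3m.

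The carrier proteins, which bind hormones, vitamins, metals and haem in plasma, comprised 9 genes. Rbp4, which carries retinol, had state 1 in the TSS bin and in all 10 bins after it in every group, and state 3 in all 10 bins before it. No bin of its window was in another state in SD 12m or CR 12m than in SD 3m. Trf, the iron carrier transferrin, and Gc, the vitamin D carrier, also had state 1 at the TSS in all 3 groups, with 13, 11 and 11 bins and 14, 11 and 13 bins of the 21 in state 1 or 2 in SD 3m, SD 12m and CR 12m.

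Alb encodes albumin, the most abundant plasma protein (chr5:90460870-90476602, plus strand). Its TSS bin was in state 4 in all 3 groups. The bins in state 1 or 2 numbered 10 for SD 3m, 9 for SD 12m and 2 for CR 12m. Their upstream edge, the first such bin in the direction of transcription, lay 200 bp after the TSS in SD 3m, 400 bp in SD 12m and 1800 bp in CR 12m. In the gene body, which spans 15733 bp, states 1 and 2 made up 17.5%, 13.8% and 2.5% of the bins, and state 4 made up 11.2%, 31.2% and 67.5%. The CR 12m segmentation stood apart from both SD segmentations in this gene. Afm (afamin), its neighbour in the albumin family, had state 3 at the TSS in all groups with 8, 10 and 7 bins in state 1 or 2.

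Ttr, which carries thyroxine and retinol-binding protein, had states 3, 2 and 3 at the TSS and 10, 11 and 10 bins in state 1 or 2. In its gene body these states made up 58.7%, 50% and 34.8% of the bins. Hp (haptoglobin, which binds free haemoglobin) and Hpx (hemopexin, which binds haem) had state 1 at the TSS in SD 3m and SD 12m and state 3 in CR 12m, with 12, 10 and 10 and with 9, 8 and 10 bins in state 1 or 2. In Hp, 9 of the 21 bins differed in state between SD 3m and SD 12m, mostly with state 2 in place of state 1. Azgp1 (zinc-alpha-2-glycoprotein) had states 2, 1 and 1 at the TSS.

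Of the fetuins and their relatives on chromosome 16, Ahsg (fetuin-A) had states 2, 3 and 2 at the TSS and Hrg (histidine-rich glycoprotein) had 1, 3 and 3. Kng1 (kininogen) had state 4 in all groups. Fetub (fetuin-B) had state 3 in all groups and 1, 0 and 0 bins in state 1 or 2.

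The apolipoproteins, which build and direct lipoprotein particles, lay largely in 2 clusters. In the cluster on chromosome 9, 4 genes lie within 39978 bp between the TSS of Apoa1 and of Apoa5. Apoa1, the main protein of high-density lipoprotein (chr9:46228630-46230469, plus strand), had states 4, 1 and 3 at the TSS and 3, 10 and 10 bins in state 1 or 2. Its upstream edge lay 600 bp after the TSS in SD 3m, at the TSS in SD 12m and 200 bp after it in CR 12m. Apoa1 was thus low in these states in SD 3m and had the same number of such bins in both 12-month groups.

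Its neighbours in the cluster varied. Apoc3, an inhibitor of lipoprotein lipase, had states 1, 4 and 3 at the TSS and 11, 9 and 10 bins in state 1 or 2. Apoa5, which promotes that enzyme's action, had states 4, 1 and 1 and 10, 12 and 12 bins. Apoa4, known mainly from the intestine in lipid absorption, had state 3 at the TSS in all groups and no bin in state 1 or 2 within 2 kb in any group. All 4 genes lay in 1 unbroken stretch of states 1 to 5, of 152.4 kb in SD 3m, 164.8 kb in SD 12m and 166.8 kb in CR 12m.

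In the cluster on chromosome 7, which holds Apoe, Apoc1, Apoc4 and Apoc2, Apoe had the most bins in state 1 or 2 of all 59 genes in SD 3m and SD 12m, and shared the highest number with Gc and Azgp1 in CR 12m. Apoe encodes a ligand of lipoprotein receptors and is known to be made by many cell types besides hepatocytes. It had states 2, 2 and 1 at the TSS, and 21 of 21 bins in state 1 or 2 for SD 3m, 16 for SD 12m and 13 for CR 12m. Apoc1 followed the same order with 14, 11 and 10 bins, and states 2, 2 and 3 at the TSS. Apoc4 had states 3, 2 and 3 and 10, 11 and 10 bins, and Apoc2, the activator of lipoprotein lipase, had state 3 in all groups and 11, 9 and 9 bins.

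Apoa2, another protein of high-density lipoprotein, had 13 bins in state 1 or 2 for SD 3m, 0 for SD 12m and 2 for CR 12m. Compared with SD 3m, 13 of its 21 bins differed in state in SD 12m, the most among the secreted proteins, and 12 differed in CR 12m. The TSS bin was in states 2, 3 and 3, and states 1 and 2 made up 100%, 36.0% and 32.0% of the gene body. Apob, the scaffold of low-density lipoprotein, had state 1 at the TSS in all groups and 11, 13 and 12 bins. Apoh (beta-2-glycoprotein 1) had states 4, 1 and 1 and 10, 11 and 11 bins.

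**Figure D3:**
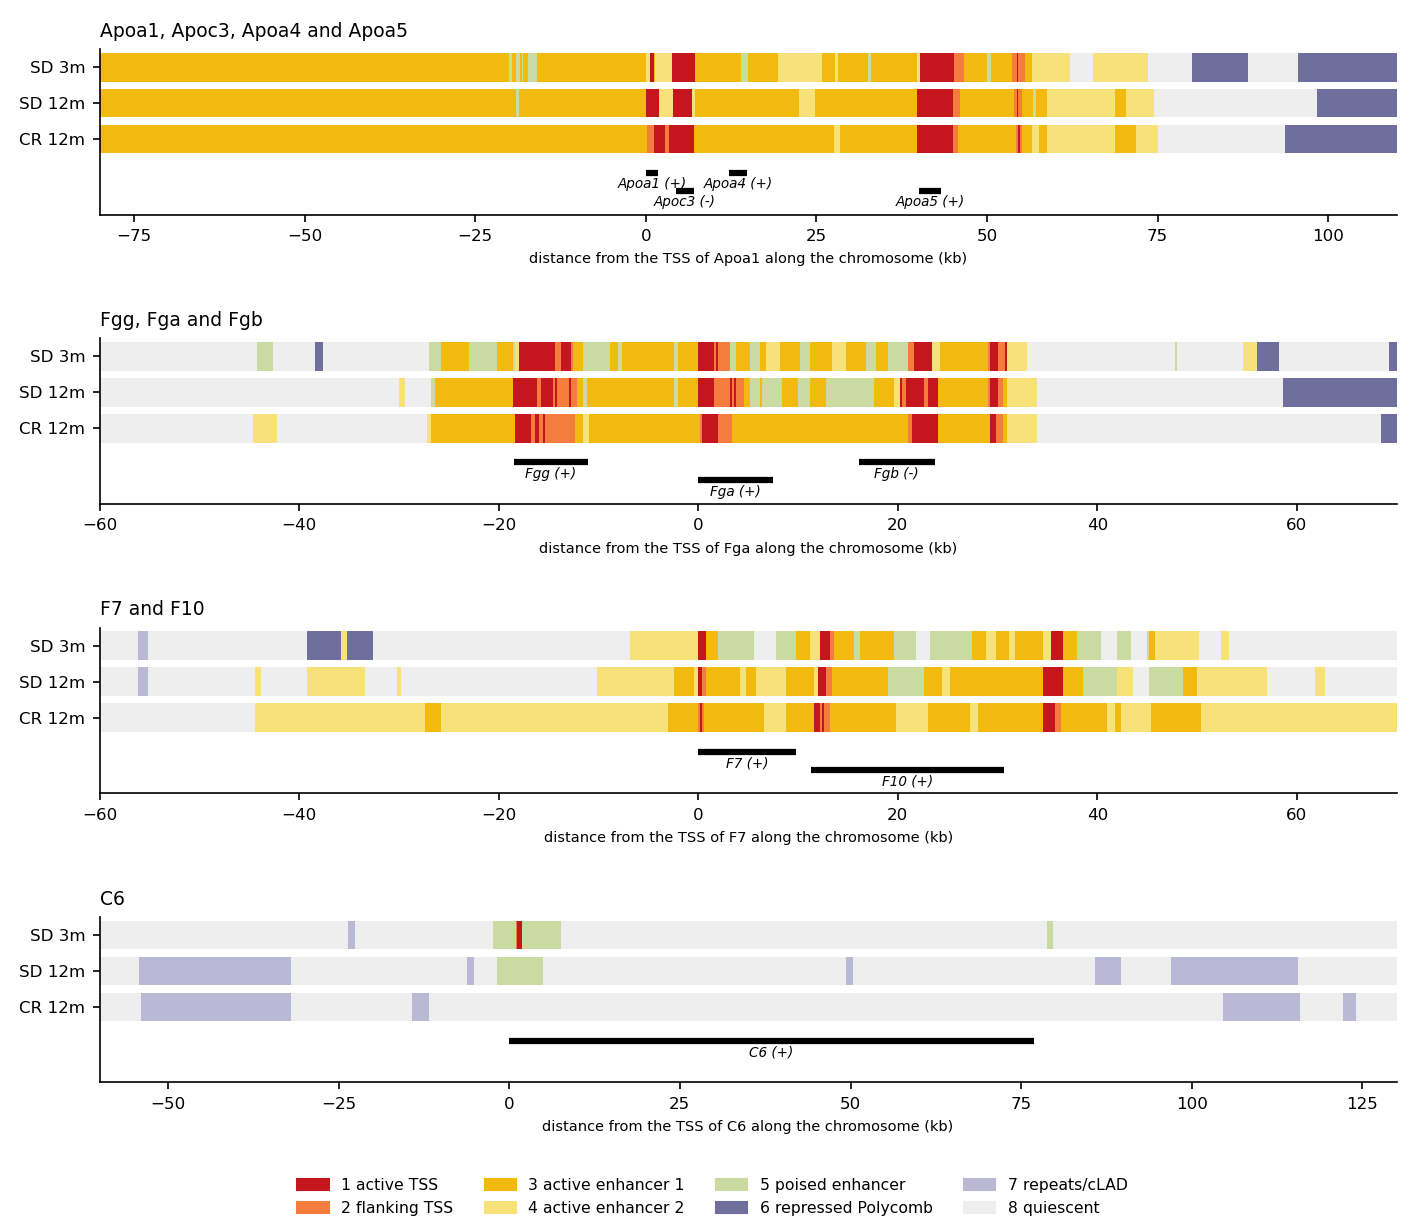
States along 4 regions in SD 3m, SD 12m and CR 12m, by distance (kb, along the chromosome) from the TSS of Apoa1, Fga, F7 and C6; black bars are the listed genes with their strand, and colours are the 8 states. The enhancer states around F7 and F10 widen from SD 3m to CR 12m, the fibrinogen block keeps its length, and C6 carries active or poised states near its TSS in SD 3m and SD 12m but not in CR 12m.

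The fibrinogen genes Fga, Fgb and Fgg, whose products form the fibres of a clot, lie within 42139 bp on chromosome 3. Fga had states 1, 1 and 3 at the TSS, and Fgb and Fgg both had 4, 1 and 1. The bins in state 1 or 2 numbered 11, 11 and 10 in Fga, 8, 11 and 11 in Fgb and 9, 12 and 11 in Fgg. In Fgb and Fgg the upstream edge lay 600 bp and 400 bp after the TSS in SD 3m, and at or before the TSS in both 12-month groups. The 3 genes shared an unbroken stretch of states 1 to 5 of 60, 60.8 and 61.2 kb.

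The coagulation factors, the enzymes of the clotting cascade and the cofactor F5, differed among themselves. F2 (prothrombin) had states 1, 3 and 3 at the TSS and 13, 10 and 10 bins in state 1 or 2. F5 had states 1, 1 and 2 and 13, 13 and 6 bins. F11, an enzyme of the intrinsic pathway, had state 3 in all groups with 10 bins for SD 3m, 2 for SD 12m and 0 for CR 12m. F11 was the gene of this group with the clearest order of SD 3m above SD 12m above CR 12m. F12 had state 2 in all groups and 8, 8 and 6 bins.

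F7 and F10, which encode factors VII and X and lie 11274 bp apart at their TSS on chromosome 8, had short promoter stretches. F7 had states 1, 1 and 2 and 4, 4 and 3 bins in state 1 or 2. F10 had states 4, 3 and 3 and 6, 7 and 8 bins. In F7, 11 and 14 of the 21 bins, and in F10, 8 and 13, were in another state in SD 12m and CR 12m than in SD 3m. In F7 these were mostly bins before the TSS, in state 4 in SD 3m and in state 3 at 12 months, and in F10 they lay on both sides of the TSS.

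Among the inhibitors of clotting and plasminogen, Serpinc1 (antithrombin) and Serpina10 (protein Z-dependent protease inhibitor) had state 3 at the TSS in all groups. The bins in state 1 or 2 numbered 10, 6 and 6 in Serpinc1 and 10, 10 and 10 in Serpina10. Serpind1 (heparin cofactor II) had states 3, 2 and 3 and 9, 12 and 10 bins. Proc (protein C) had states 3, 4 and 3 and 10, 5 and 4 bins, with the upstream edge 200, 1200 and 1400 bp after the TSS. Plg (plasminogen) had states 1, 2 and 1 and 10, 9 and 10 bins, although 10 and 12 of its 21 bins were in another state in SD 12m and CR 12m than in SD 3m.

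Serpina6 and Hamp went opposite ways. Serpina6 encodes the globulin that carries glucocorticoids in blood, and Hamp encodes hepcidin, the hormone that limits iron release into blood. Serpina6 had 10 bins in state 1 or 2 for SD 3m, 7 for SD 12m and 0 for CR 12m, with state 3 at the TSS throughout. Hamp had 0, 2 and 8 bins, with states 4, 4 and 1 at the TSS. In its gene body of 1662 bp, states 1 and 2 made up 0%, 20% and 80%. In CR 12m Serpina6 shared the lowest number of bins in state 1 or 2 within 2 kb, while Hamp was still below the median of the 59 genes. Both genes lay in active domains in every group.

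The complement proteins, which mark and lyse microbes, included the genes with the fewest active states. C3, the central component, had state 3 at the TSS and state 2 in the 10 bins after it in every group, and no bin of its window was in another state in either 12-month group. Hc, the gene of complement C5, had states 2, 1 and 3 and 12, 11 and 10 bins in state 1 or 2. Cfb (factor B) had state 3 in all groups and 11, 9 and 10 bins, and Cfi (factor I) had states 1, 2 and 1 and 14, 7 and 7 bins.

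The terminal components form the pore of the membrane attack complex. C8g had state 2 in all groups and 15, 12 and 11 bins. C8a had states 1, 2 and 3 and 11, 5 and 3 bins, and C8b had state 3 in all groups and 1, 0 and 0 bins. C9 had state 3 in all groups and 4, 0 and 0 bins. In all 4 genes the bins in state 1 or 2 were most numerous in SD 3m.

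C6 was the only gene of the list with the TSS in state 8 in any group. This gene (chr15:4727210-4804045, plus strand) encodes the component that joins the complex after C5b. It had state 5 at the TSS in SD 3m and SD 12m and state 8 in CR 12m, and 4, 0 and 0 bins in state 1 or 2. The unbroken stretch of states 1 to 5 that holds its TSS was 10 kb long in SD 3m, 6.80 kb in SD 12m and absent in CR 12m. Of its gene body, 90.1%, 93.5% and 100% was in states 6 to 8.

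The lectin pathway, which starts complement on microbial sugars, was represented by Masp1, Masp2 and Mbl2. Masp1 had state 2 in all groups and 17, 12 and 10 bins in state 1 or 2, the second most of the list in SD 3m. Masp2 had states 1, 3 and 3 and 8, 7 and 6 bins, and Mbl2 had states 1, 1 and 3 and 8, 11 and 10 bins.

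The inter-alpha-trypsin inhibitor chains bind hyaluronan in the extracellular matrix, and Ambp encodes the light chain bikunin together with alpha-1-microglobulin. Ambp had state 2 in all groups and 13, 11 and 11 bins. Itih1 had states 2, 2 and 3 and 9, 10 and 4 bins, and Itih2 had 3, 2 and 3 and 9, 11 and 9 bins. Itih3 and Itih4 had state 3 in all groups, with 7, 3 and 2 and with 9, 8 and 9 bins.

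Of the genes that do not encode plasma proteins, Cps1 had state 1 at the TSS in all groups and 13, 11 and 11 bins in state 1 or 2. C5ar1 had states 5, 4 and 4 and no bin in state 1 or 2 in any group, which it shared with Apoa4 alone. All 21 bins of C5ar1 were in another state in both 12-month groups than in SD 3m, from poised or active enhancer to state 4.

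**Figure D4:**
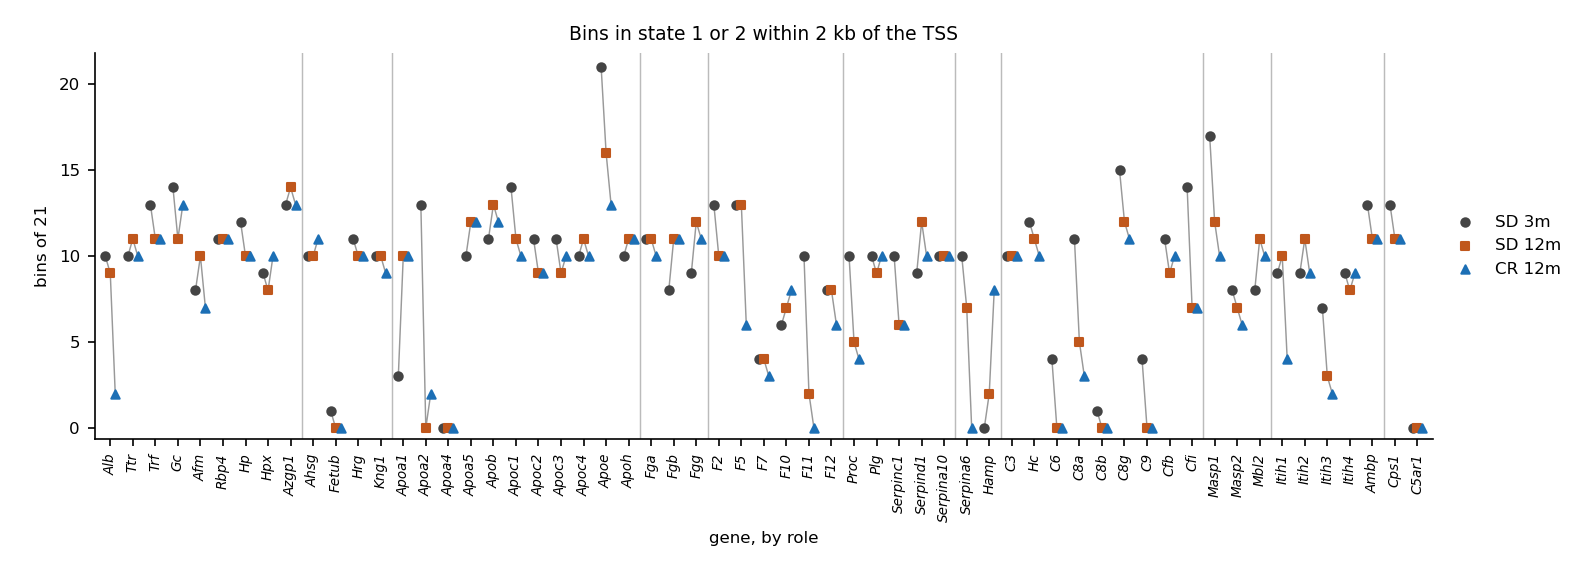
Number of bins in state 1 or 2 among the 21 bins within 2 kb of the TSS (vertical axis) for each of the 59 genes (horizontal axis, by role, separated by grey lines) in SD 3m, SD 12m and CR 12m, joined by a line within a gene. Most genes sit near 10 in all groups; Apoa2, F11, Serpina6 and C8a are lower at 12 months, Apoa1 and Hamp are higher, and Alb is low in CR 12m only.

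With age on the standard diet, the state of the TSS bin differed between SD 3m and SD 12m in 23 of 59 genes (39.0%, against 32.6% of all genes). Of the 29 genes in state 1 or 2 in SD 3m, 6 were in another class in SD 12m (20.7%, against 16.5%). These were Ahsg, Hrg, Apoa2, Apoc3, F2 and Masp2. Of the other 30, 9 were in state 1 or 2 in SD 12m (30.0%, against 2.07%), namely Ttr, Apoa1, Apoa5, Apoc4, Apoh, Fgb, Fgg, Serpind1 and Itih2. All genes that began outside states 1 and 2 include many with no active mark, so the latter share has another base.

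Fewer promoter bins at 12 months were less frequent among these genes than among all genes. Among genes with state 1 or 2 in the window in either group, 32 of 57 had fewer such bins in SD 12m than in SD 3m (56.1%, against 87.0% of all genes), and 16 had more (28.1%, against 6.64%). The upstream edge lay further downstream in 23 of 51 genes (45.1%, against 70.3%) and further upstream in 13 (25.5%, against 7.65%). In the 63 further plasma protein genes the edge was placed much as in the 59, further downstream in SD 12m in 21 of 49 (42.9%) and further upstream in 13 (26.5%). It lay further downstream in 21 of 35 hepatocyte enzyme genes and further upstream in 5 (14.3%). In the 1544 CpG-poor genes described above it lay further downstream in 55.2% and further upstream in 11.7%. Each of these lists thus lay on the same side of all genes as the 59. Measures of the edge were added after the values were seen. The median position of that edge in SD 3m was at the TSS in the 56 genes that had it and 800 bp before the TSS over all genes. Across the genome, state 2 covered 1.13% of bins for SD 3m, 0.425% for SD 12m and 0.361% for CR 12m.

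Between CR 12m and SD 3m, which differ in age and in diet, the TSS bin was in another state in 26 genes (44.1%, against 34.7% of all genes). Of the 29 genes in state 1 or 2 in SD 3m, 13 were outside these states in CR 12m (44.8%, against 25.9%), and of the other 30, 5 were in them (16.7%, against 1.70%), namely Apoa5, Apoh, Fgb, Fgg and Hamp. Fewer bins in state 1 or 2 were found in 36 of 57 genes (63.2%, against 91.4%) and more in 12 (21.1%, against 4.57%). The upstream edge lay further downstream in 28 of 50 genes (56.0%, against 76.8%) and further upstream in 9 (18%, against 5.73%). For the further plasma protein genes these were 22 of 48 (45.8%) and 14 (29.2%), and for hepatocyte enzyme genes 18 of 35 (51.4%) and 7. For the CpG-poor genes they were 60.8% and 8.74%. Each of these lists thus differed from all genes in the same direction. The comparison of CR 12m with SD 3m shares the SD 3m segmentation with the one before.

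At 12 months, the diets were compared directly, in a comparison added after the values were seen. The state of the TSS bin differed between SD 12m and CR 12m in 23 genes (39.0%, against 26.7% of all genes). Of the 32 genes in state 1 or 2 in SD 12m, 13 were outside these states in CR 12m (40.6%, against 17.1%), and in all 13 the state in CR 12m was 3. Of the other 27, 2 were in state 1 or 2 in CR 12m (7.41%, against 2.93%), Ahsg and Hamp. The totals in state 1 or 2 were thus 32 with the standard diet and 21 with fewer calories. Further plasma protein genes numbered 23 with either diet, and hepatocyte enzyme genes 28 and 25. A net fall of similar size was thus absent from these lists, for which only totals were compared. Fewer bins in state 1 or 2 were found in 27 of 53 genes of the list (50.9%, against 58.6%) and more in 10 (18.9%, against 23.9%). The genes of the list thus differed from the background at the TSS bin more than over the window. CR 12m had 5 H3K4me3 libraries and SD 12m had 8, and state 3 covered 11.7% of the genome in CR 12m and 9.90% in SD 12m, and the part of these differences in the result was not tested.

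Over the whole windows, 295 of 1239 bins (23.8%) differed in state between SD 3m and SD 12m and 380 (30.7%) between SD 3m and CR 12m, against 37.2% and 38.2% of the bins in all TSS windows and 31.9% and 24.2% of the bins of the genome. The median gene had 4 and 5 such bins of 21. Between SD 12m and CR 12m, 242 bins (19.5%) differed, against 25.4% over all TSS windows. Bins in state 3 had the same state again more often than bins in any other state. SD 3m had 536 bins in state 3, and 503 of them (93.8%) kept it in SD 12m and 527 (98.3%) in CR 12m. Over all TSS windows state 3 was also the state kept most often, in 83.9% and 87.0% of its bins. Of the 300 bins in state 2, 82 (27.3%) and 97 (32.3%) were in state 3 instead, lower shares than the 42.1% and 49% over all TSS windows. Of the 262 bins in state 1, 51 (19.5%) and 61 (23.3%) were in state 2, against 4.57% and 8.78% over all TSS windows. Of the 71 bins in state 4, 19 (26.8%) and 28 (39.4%) were in state 1, against 2.15% and 1.89% over all TSS windows. Among them were bins at the TSS of Apoa1 in SD 12m and of Apoa5, Apoh, Fgb and Fgg in both groups. Hepatocyte enzyme genes and further plasma protein genes also had larger shares than all TSS windows. From state 4 to state 1 these were 22.2% and 31.1% in the enzyme genes, and 14.3% and 19% in the further plasma protein genes. From state 1 to state 2 they were 14.5% and 12.1%, and 16.7% and 22.4%. Bins in another state made up 25.6% and 26.5%, and 27.8% and 37.7%, of their windows.

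The gene bodies of the 59 genes carried mostly enhancer states. States 3 to 5 made up 67.6% of the bins between TSS and end of the gene for SD 3m, 72.8% for SD 12m and 76.2% for CR 12m, against 34.7%, 35.5% and 36.5% over all genes. They made up 70.9%, 79.5% and 82.7% in the 40 hepatocyte enzyme genes and 63.1%, 66.3% and 73.1% in the 63 further plasma protein genes. In the 75 ribosomal protein genes they made up 34.1%, 57.5% and 55.7%. States 1 and 2 made up 12.7%, 11.3% and 9.86% of the bodies of the 59 genes, against 2.91%, 1.64% and 1.42% over all genes. The Polycomb state 6 was not found in any gene body of the list, and over all genes it made up 8.32%, 12.7% and 9.55%. The genes differ in length, from 1662 bp in Hamp to 108241 bp in Cps1, so that the bins near the TSS make up unequal shares of their bodies.

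The kind of enhancer state in the gene bodies differed between the groups. State 3 made up 34.8%, 45% and 56.0% of the bins in SD 3m, SD 12m and CR 12m, and the poised state 5 made up 20%, 10% and 2.99%. Over all genes the shares were 16.1%, 17.2% and 19.9% for state 3 and 9.12%, 5.32% and 4.57% for state 5. In C3, state 5 made up 39.3%, 5.74% and 0% of the body and state 3 made up 50%, 82.8% and 87.7%. In Cps1, state 5 made up 46.7%, 24.0% and 3.32%. Apob went against the order between the SD groups, with state 5 in 67.0%, 82.7% and 38.6% of its body. The H3K27ac libraries numbered 8, 7 and 9 and the H3K4me1 libraries 8, 6 and 9 in SD 3m, SD 12m and CR 12m, and their part in the result was not tested.

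Complement genes differed in the chromatin of their bodies, and C6 and C9 had little in active states. In C9, 88.5%, 88.1% and 87.7% of the body was in states 6 to 8, close to the values of C6 but with state 3 at the TSS. In Hc, a gene of 78084 bp, state 4 made up 52.3%, 83.2% and 82.4% of the body, and states 6 to 8 made up 29.6%, 0% and 0%. The 9 complement genes together had 48.7%, 59.1% and 60.7% of their bodies in states 3 to 5. This was the lowest share of the roles in SD 3m, and only the fibrinogen genes, at 37.1% and 47.4%, were lower in SD 12m and CR 12m, where 62.9% and 52.6% of their bodies were in state 1 or 2.

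In the 50 kb on each side of the genes, enhancer states were also more frequent than over all genes. States 3 to 5 made up 65.9% of these flanks for SD 3m, 73.5% for SD 12m and 77.5% for CR 12m, against 36.9%, 41.4% and 42.4% over all genes. The other lists were closer to the 59 genes. The shares were 59.5%, 67.1% and 72.4% around the 63 further plasma protein genes. They were 61.8%, 70.8% and 74.3% around the 40 hepatocyte enzyme genes and 56.9%, 66.7% and 67.7% around the 75 ribosomal protein genes. Flanks of neighbouring genes of the list overlap and were counted for each gene. The median gene had 67.6%, 81.0% and 86.2%. The share was larger in SD 12m than in SD 3m in 48 of 59 genes (81.4%, against 57.6% of all genes) and smaller in 10 (16.9%, against 21.7%). It was larger in CR 12m than in SD 3m in 53 genes (89.8%, against 60.1%) and smaller in 6 (10.2%, against 19.7%).

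Single genes ranged widely. Alb lay in flanks with 96.4%, 95.8% and 98.2% in states 3 to 5, and C6 in flanks with 3.20%, 1.80% and 0%. Around F7 the share was 41.2%, 59% and 91.0%, and around F10 33.2%, 53.6% and 95.2%. The flanks of these 2 neighbours, which overlap, had the widest range across the groups of all 59 genes. Around Apoa1 it was 90.2%, 91.0% and 89.0%, and around Fga 45.6%, 41.8% and 45.4%, so that these clusters differed little between the groups.

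**Figure D5:**
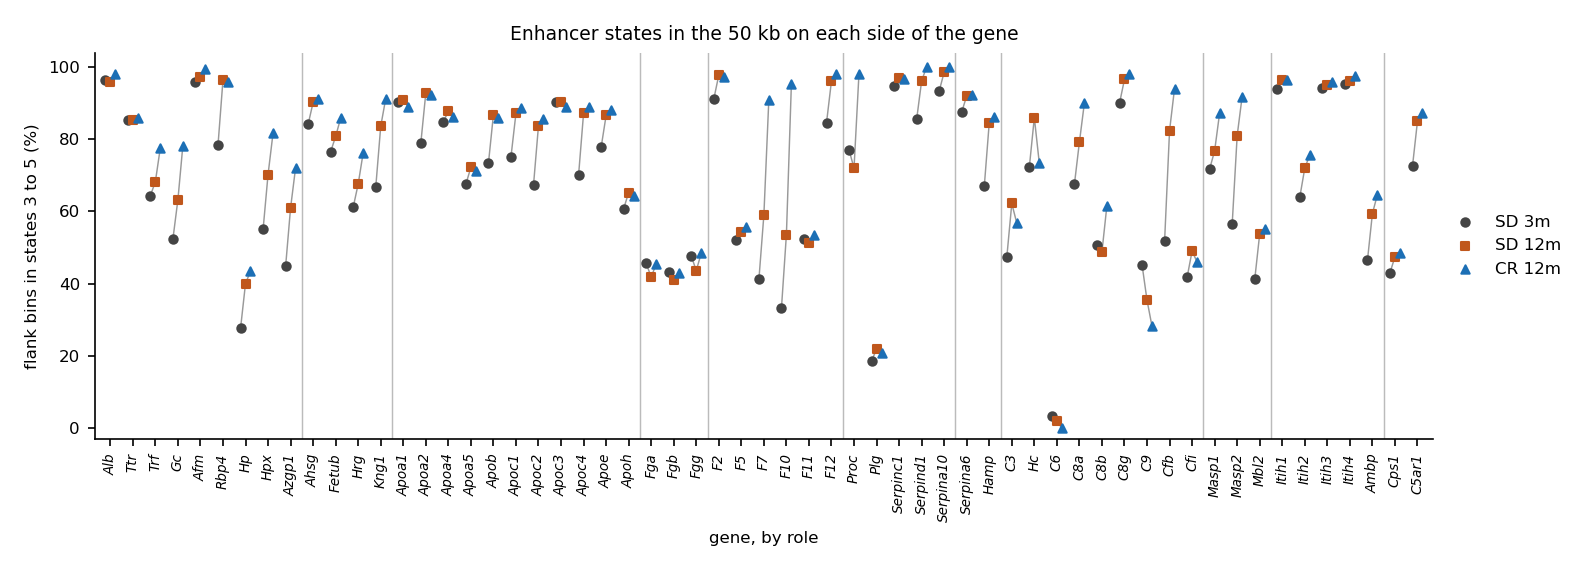
Percent of bins in states 3 to 5 in the 50 kb on each side of the gene (vertical axis) for each of the 59 genes (horizontal axis, by role, separated by grey lines) in SD 3m, SD 12m and CR 12m, joined by a line within a gene. In 53 genes CR 12m lies above SD 3m; F10 and F7 span the widest ranges, and C6 lies near 0 in all groups.

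By the longest unbroken stretch of states 3 to 5 in any of the 3 groups that overlapped a gene or its flanks, the first 5 genes were Masp1, Ttr, C8a, Hc and Ambp. At Masp1 the longest stretch was 97.4 kb in SD 3m, 226.6 kb in SD 12m and 292.2 kb in CR 12m. At Ttr it was 71.0, 225.4 and 124.4 kb, and at C8a 44.6, 154.8 and 148.8 kb. At Hc it was 34.2, 108.8 and 105.2 kb, and at Ambp 19.8, 107.8 and 61.0 kb. Hc and Ambp were below the median of the 59 genes in SD 3m, which was 37.0 kb. As the genes were picked by their longest value, which came from a 12-month group in all 5, the shorter stretches in SD 3m are no finding.

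The domain of active or poised states (1 to 5) that holds the TSS also differed in length between the groups. Its median length was 74.0 kb in SD 3m, 124 kb in SD 12m and 167 kb in CR 12m. At Alb it was 96.2, 336.8 and 335.6 kb, and at Hamp 15, 196.4 and 243.0 kb. A domain of states 1 to 5 ends at the first bin in states 6 to 8, so that a few bins can join or divide it.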

How the data were processed

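The authors aligned reads to mm10 (BWA 0.6.2-r126 and SAMtools 0.1.18, per the labels), merged the libraries of each group and mark, and deposited a ChromHMM state label, a category and not a count or signal, for each of 13168874 bins of 200 bp. The thresholds behind a label could not be varied here. From these labels, states were read in Python 3.11.15 (numpy 2.4.6, pandas 2.3.3, pyfaidx 0.9.0.4, matplotlib 3.10.9) at the TSS bin, 10 bins on each side, the gene body and 50 kb flanks, with the longest curated RefSeq transcript (GRCm38.p6) of each gene. Promoter letters were read from the genome, whose windows equalled those of RefSeq in all 19069 genes compared, 44 of the 59 included. The functions were tested on simulated data. The genes, roles and lists were chosen with earlier results of these data known. Values are named for genes fixed by name and for genes picked by rank: most bins in another state, TSS in states 6 to 8, most or no bins in states 1 and 2, and longest enhancer stretch. Every gene is given with its TSS states. Each group has 1 segmentation, so no test was made, and Wilson 95% intervals cover counting only. SD 6m was not analysed here.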

Additional observations from a re-analysis of the deposited data

How the results depend on the processing

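Of 104 alternative values for 25 results, 62 lay within the 95% interval of counting of the main value and 42 lay outside it. All alternatives at the TSS bin, including another choice of TSS, stayed within that interval. The interval is wide where 59 genes were counted (36.8 to 61.6 in SD 3m) and narrow for 29500 flank bins (65.4 to 66.5). Bins of a gene are not independent. Whether a value lay inside thus depends on the number counted and does not rank the results by how firm they are. Values are given for SD 3m, SD 12m and CR 12m in this order. Counting only stretches of at least 1 kb gave 81.4%, 69.5% and 66.1% of genes with state 1 or 2 within 2 kb, 36.0%, 29.5% and 24.6% of window bins and 10.2%, 8.19% and 6.98% of body bins in these states, and 65.3% of flank bins in states 3 to 5 in SD 3m. Windows of 1 kb gave 50.4%, 45% and 39.6% of bins in state 1 or 2, and windows of 5 kb gave 30.2%, 25.4% and 23.1%. The mean over genes gave 28.1%, 26.8% and 26.0% of the body in these states. In the flanks, states 3 to 5 made up 74.3%, 80.8% and 84.2% within 20 kb and 60%, 66.4% and 70.2% within 100 kb, and states 3 and 4 alone made up 57.2%, 70.1% and 76.6%. Bins in another state than in SD 3m were 12.5% and 16.2% in SD 12m and CR 12m with states merged into 5 classes, 16% and 23.1% without bins next to a boundary, and 34.1% in CR 12m within 1 kb. Alternatives for the bins before and after the TSS were chosen after seeing the data: within 1 kb, 19.6%, 11.8% and 6.94% before and 92.7%, 91.0% and 86.5% after it were in state 1 or 2, and over all 59 genes 79.3%, 72.5% and 69.3% after it. With the most 3′ TSS of each gene, also chosen after seeing the data, the share after the TSS was 85.7% in SD 3m and 85.9% in SD 12m, so that the order of these groups, 87.3% and 85.1% in the report, was the opposite. No paired analysis was possible because each group has 1 segmentation of merged libraries, and no library could be left out for the same reason. The depth of the merged libraries is unknown.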
